A study of Mus musculus with 15 samples.

Results

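Epididymal fat was compared with liver and with colon, here the mucosa of the intestine, in 9 of the 15 RNA-Seq samples of the study. The 3 fat libraries were chosen by their tissue label and set against the 6 libraries of liver and colon, and the 6 libraries of hypothalamus and hippocampus were used only for a side comparison. All samples came from male C57BL/6 mice, for which no transgene or mutation is described. Mice of the AL group ate freely and were 5 months of age. Mice of the DR group were given 60% of the AL intake for 1 month from 4 months of age, and were also 5 months of age. Mice of the DR-AL group had the same month of DR and then 2 months of AL feeding, which made them 7 months of age, so that age and diet cannot be told apart in this group. Equal RNA pools of 5 mice gave 1 library for each tissue in each diet, and the tissues of a diet were taken from the same mice. The 3 libraries of a tissue are therefore 3 diets, not replicate animals, and a p-value measures the tissue difference against the spread between diets that the diet term leaves.

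White adipose tissue stores triglyceride in large lipid droplets and releases fatty acids between meals. Its adipocytes take up fatty acids freed by lipoprotein lipase, import glucose through the insulin-responsive transporter GLUT4, coat the droplet with perilipin, and secrete hormones such as leptin and adiponectin. The nuclear receptor PPARγ and the C/EBP factors direct their formation. The tissue also holds progenitors and matrix, a dense bed of capillaries, macrophages and, around the visceral depots, a layer of mesothelium. The epididymal depot lies against the epididymis and testis.

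The fat, liver and colon libraries held between 21767088 and 33422262 counts on the 23589 loci with a gene name. Levels are given as CPM, counts scaled to a common library size after TMM normalization, which centres the bulk of the genes. The defining markers of each tissue were checked first. The 20 liver markers summed to between 148064 and 168794 CPM in the liver libraries, although Alb, the gene of albumin, was listed at 0 in every library. The 20 colon markers summed to between 57210 and 60653 CPM in the colon libraries. In fat, the 33 measured genes of lipid storage and lipolysis summed to 54708, 37962 and 27467 CPM for AL, DR and DR-AL, above the 8642 to 13315 of liver and the 884 to 1147 of colon.

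The fat libraries also held transcripts of other tissues, and unequally. Liver markers summed to 16510 CPM in AL fat, 3647 in DR fat and 2571 in DR-AL fat. The median liver marker reached 7.42% of its level in the liver library of the same diet in AL fat, against 0.0626% in DR fat and 0.0115% in DR-AL fat. The order was the opposite for the male tract. The 17 epididymis markers summed to 745 CPM in AL fat, 2410 in DR fat and 3381 in DR-AL fat, and to at most 2.22 CPM in any liver or colon library. Most of the sum in each fat library came from 1 gene, Crisp1. The 20 testis markers summed to 98.0, 795 and 3280 CPM in the same order, against 107 to 141 CPM in liver. The part of these transcripts in the results below was not tested, and each result that they touch is given with its value in every fat library.

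Over the 15913 genes tested with diet as a term, fat was higher than liver for 5967 genes (37.5% of those tested) and lower for 4222 (edgeR's quasi-likelihood test, Benjamini-Hochberg adjusted p under 0.05). Against colon it was higher for 5393 genes (33.9%) and lower for 4719. Against the mean of both it was higher for 5568 genes (35.0%) and lower for 4129 (25.9%). The balance turned with the scaling, from 9664 higher and 1408 lower with library totals to 2981 higher and 8331 lower in limma on log2(FPKM + 0.1). Fat was higher than liver and also higher than colon for 3274 genes (20.6%), and lower than both for 1789.

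A gene was called higher in fat in all 3 diets if it passed both tests, had at least 1 CPM in every fat library, and was at least 2 times as high in fat as in the liver and as in the colon library of the same diet in each diet. A liver or colon count under 3 was set to 3 for these folds, so that the fold of a gene near 0 is understated. The floor and folds alone, without the tests, were met by 1939 of the genes tested. With both tests, 1929 (12.1%) met the rule. Another 518 genes passed both tests but were under 1 CPM in a fat library, and 827 passed both tests and the floor but were under 2-fold in some diet. The smallest of the 6 same-diet folds had a median of 5.19 over the 1929 genes. It was at least 10 for 506 genes and at least 100 for 44. The genes took 22.3% of the counts of AL fat, 21.8% of DR fat and 20.0% of DR-AL fat, but between 0.624% and 0.932% of the counts of the liver libraries and between 0.727% and 0.758% of those of colon. These are the genes whose smaller level outside fat defined them, so the shares are a description.

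Genes close to the 2-fold limit show what it separates. Spry1, a feedback inhibitor of receptor tyrosine kinase signalling, had a smallest fold of 2.0008 and Slc39a10, a zinc importer, one of 2.006. E130112N10Rik had a smallest fold of 1.996 and was left out.

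**Figure D1:**
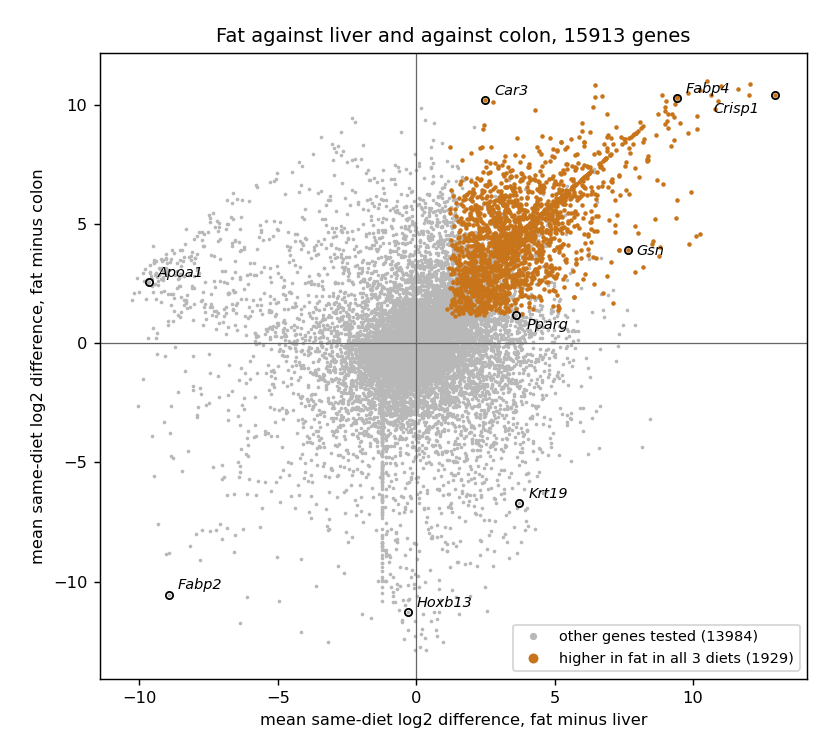
Each point is 1 of 15913 genes, with the mean over the 3 diets of the same-diet log2 difference between fat and liver on the x axis and between fat and colon on the y axis (counts under 3 set to 3, which gives the lines of aligned points). The 1929 genes higher in fat in all 3 diets are coloured; Fabp4 lies far from both tissues, Car3 is far from colon but 2.50 from liver, and Pparg lies 3.60 from liver and 1.18 from colon.

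A set of 12 genes stood farthest from both tissues, by the smallest of their 6 same-diet folds among genes with at least 10 CPM in every fat library. They were Aoc3, Glb1l2, Cfd, Ankef1, Lep, Adipoq, Serpina1f, Retn, Spink8, Crisp1, Sncg and Plin1. Aoc3, Cfd, Lep, Adipoq, Retn, Sncg and Plin1 are known from adipocytes, and Serpina1f, Spink8 and Crisp1 from the epididymis.

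Adipoq (chr16:23146536-23158028, plus strand) encodes adiponectin, a hormone of adipocytes that raises insulin sensitivity. It reached 3444 CPM in AL fat, 2120 in DR fat and 1428 in DR-AL fat, against 0.126, 1.06 and 0.698 CPM in liver and 2.57, 0.632 and 2.49 CPM in colon. The lowest fat library was 573 times as high as the colon library of its diet (edgeR adjusted p = 0.00026 against colon, 0.00033 against liver).
Lep (chr6:29060220-29073877, plus strand) encodes leptin, which reports fat stores to the brain. Its level was 299.97 CPM in AL fat, 275 in DR fat and 157 in DR-AL fat. Liver had 0, 1 and 0 reads and colon 4, 0 and 7 (edgeR adjusted p = 0.00012 and 4.6e-05).
Plin1 (chr7:79720218-79732903, minus strand) encodes perilipin 1, the coat of the adipocyte lipid droplet that gates lipolysis. It reached 1440, 1327 and 597 CPM in AL, DR and DR-AL fat, and no more than 1.48 CPM in any liver or colon library.
Retn (chr8:3655770-3660110, plus strand) encodes resistin, an adipocyte hormone of the mouse. Fat held 1119, 1294 and 436 CPM, between 533 and 4094 times the colon level of the same diet.
Cfd (chr10:79890853-79892655, plus strand) encodes adipsin, the complement factor D. It had 7688, 6816 and 5118 CPM in fat, 2.96 to 5.58 CPM in liver and 2.01 to 8.44 CPM in colon. For each of these 5 genes AL or DR fat was the highest fat library and DR-AL fat the lowest. They were chosen by their folds, so that their distance from liver and colon is a description.

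Aoc3 (chr11:101330605-101341938), a surface amine oxidase of adipocytes and smooth muscle, had 1128, 826 and 467 CPM in fat and at most 1.23 CPM in liver or colon. For Sncg (chr14:34370274-34374789), the gene of γ-synuclein, fat had 424, 245 and 362 CPM and no liver or colon library exceeded 0.529. Glb1l2 (chr9:26763044-26806468), a β-galactosidase-like gene, had 503, 309 and 315 CPM in fat. Ankef1 (chr2:136501910-136562091) was the most even of the 12, with 138, 119.7 and 123 CPM in fat, and no read in any liver library, so that fat was at least 603 times as high as liver.

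The 3 epididymal genes ran the other way across the fat libraries. Crisp1 (chr17:40293758-40319207), a cysteine-rich secretory protein of the epididymis, had 665 CPM in AL fat, 1904 in DR fat and 2842 in DR-AL fat, and at most 1.34 CPM in the 6 other libraries. Its counts may include reads of near-identical members of its family. Spink8 (chr9:109812280-109826633), a protease inhibitor, had 100.7, 317 and 669 CPM and no read in liver. Serpina1f (chr12:103688044-103695529) had 107, 219 and 233 CPM. All 3 met every condition of the rule. Their order over the libraries was that of the epididymis marker sum, 745, 2410 and 3381 CPM. Crisp1 makes up most of that sum in each fat library, so that for Crisp1 the shared order is given by construction.

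**Figure D2:**
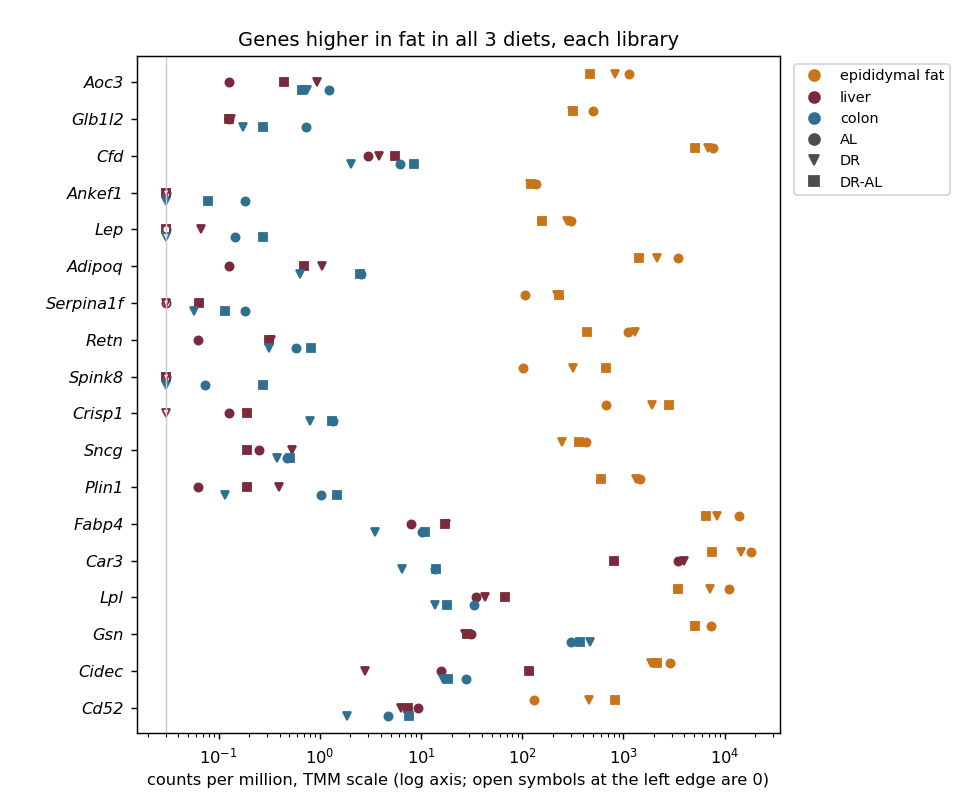
CPM on the TMM scale (log axis) of the 12 genes farthest from liver and colon and of the further genes with the highest FPKM, in each of the 3 fat, 3 liver and 3 colon libraries; open symbols at the left edge stand for 0. All genes shown met the rule, so that fat lies above the liver and colon libraries of the same diet by selection. AL fat is the lowest fat library for Serpina1f, Spink8, Crisp1 and Cd52.

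The 250 bases upstream of the start of 4 of these genes are printed to set 3 adipocyte genes, with high levels in all 3 fat libraries, beside an epididymal one. They are RefSeq promoters on GRCm38, 5′ to 3′ on the strand of the gene: Adipoq at chr16:23146286-23146535, plus; Lep at chr6:29059971-29060220, plus; Plin1 at chr7:79732777-79733026, minus; and Crisp1 at chr17:40319208-40319457, minus. The RefSeq start of Plin1 lies inside the GENCODE span given above, so that part of its window overlaps that span, and the window of Lep overlaps the span of Lep by 1 base. Capitals mark TATAAA and TTGCNNAA, a form of the C/EBP motif, searched on both strands.
Adipoq: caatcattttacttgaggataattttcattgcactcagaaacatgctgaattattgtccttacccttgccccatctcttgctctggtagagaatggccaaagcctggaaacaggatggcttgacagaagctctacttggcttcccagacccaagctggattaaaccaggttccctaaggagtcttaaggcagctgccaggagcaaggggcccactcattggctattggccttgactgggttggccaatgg
Lep: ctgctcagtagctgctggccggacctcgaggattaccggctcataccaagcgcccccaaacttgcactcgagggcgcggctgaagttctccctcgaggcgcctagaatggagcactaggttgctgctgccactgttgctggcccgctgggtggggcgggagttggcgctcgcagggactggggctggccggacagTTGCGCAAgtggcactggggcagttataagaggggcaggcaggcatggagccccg
Plin1: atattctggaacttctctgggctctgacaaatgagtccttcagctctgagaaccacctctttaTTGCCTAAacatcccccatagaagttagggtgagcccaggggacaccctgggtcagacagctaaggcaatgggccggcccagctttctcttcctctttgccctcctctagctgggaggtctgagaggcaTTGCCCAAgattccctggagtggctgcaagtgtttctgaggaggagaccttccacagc
Crisp1: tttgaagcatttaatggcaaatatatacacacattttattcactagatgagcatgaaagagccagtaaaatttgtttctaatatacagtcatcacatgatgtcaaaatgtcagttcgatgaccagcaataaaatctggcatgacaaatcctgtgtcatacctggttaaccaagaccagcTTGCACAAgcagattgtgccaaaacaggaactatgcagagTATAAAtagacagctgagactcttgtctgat
Lep held 1 match to TTGCNNAA, which starts at position -55 and reads the same way on both strands. Plin1 held 2 and Crisp1 held 1, and Crisp1 alone held TATAAA, at position -31. Adipoq held none of these letters in this window. In the 300 bases around the start (250 before and 50 after), TATAAA was found in 8.34% and TTGCNNAA in 9.09% of the 15970 promoters listed for 12581 of the genes tested. A promoter was matched for 1428 (74.0%) of the 1929 genes, under the 80% needed, so no comparison of the promoters of these genes with other promoters was made.

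Per length, in FPKM, Fabp4, Car3 and Cfd were the 3 genes with the highest level in every fat library, among the genes higher in fat in all 3 diets and among all genes alike. FPKM rank genes within a library only, since the FPKM of AL, DR and DR-AL fat lay 2.99, 4.94 and 9.14 times lower, relative to CPM, than those of AL liver. Fabp4 (chr3:10204088-10208576, minus strand), the fatty acid carrier of adipocytes, had 21190, 9167 and 4140 FPKM. On the CPM scale it had 13819, 8364 and 6553 in fat against at most 17.7 in liver and 3.50 to 10.9 in colon, a mean log2 difference of 9.41 ± 1.18 (SD, n = 3 diets) from liver and 10.28 ± 1.00 from colon. Car3, carbonic anhydrase 3, had 18089, 14630 and 7564 CPM in fat. Liver held 798 to 3982 CPM of it and colon at most 14.0, so it was far from colon only. Lpl, the lipoprotein lipase, had 11099, 7130 and 3439 CPM in fat and at most 67.7 CPM in liver or colon. Gsn, the actin-severing gelsolin, had 7257, 5123 and 5032 CPM, 178 to 232 times the liver and 10.9 to 24.1 times the colon. Among the genes that met the rule, the 10 highest mean FPKM also included Retn, Adipoq, Crisp1, Cidec and Cd52. Cd52, a small surface glycoprotein of lymphocytes and of the epididymis, had 130 CPM in AL fat, 455 in DR fat and 824 in DR-AL fat.

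Lists of genes for the functions and cells of fat were then counted. Where no more is said, a member counted is one that met the full rule, for which the share over all genes tested was 12.1%, and the median same-diet log2 difference over all genes tested was 0.24 against liver and 0.08 against colon. Being lower than liver or colon, by the same tests, held for 7152 of the 15913 genes tested.

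**Figure D3:**
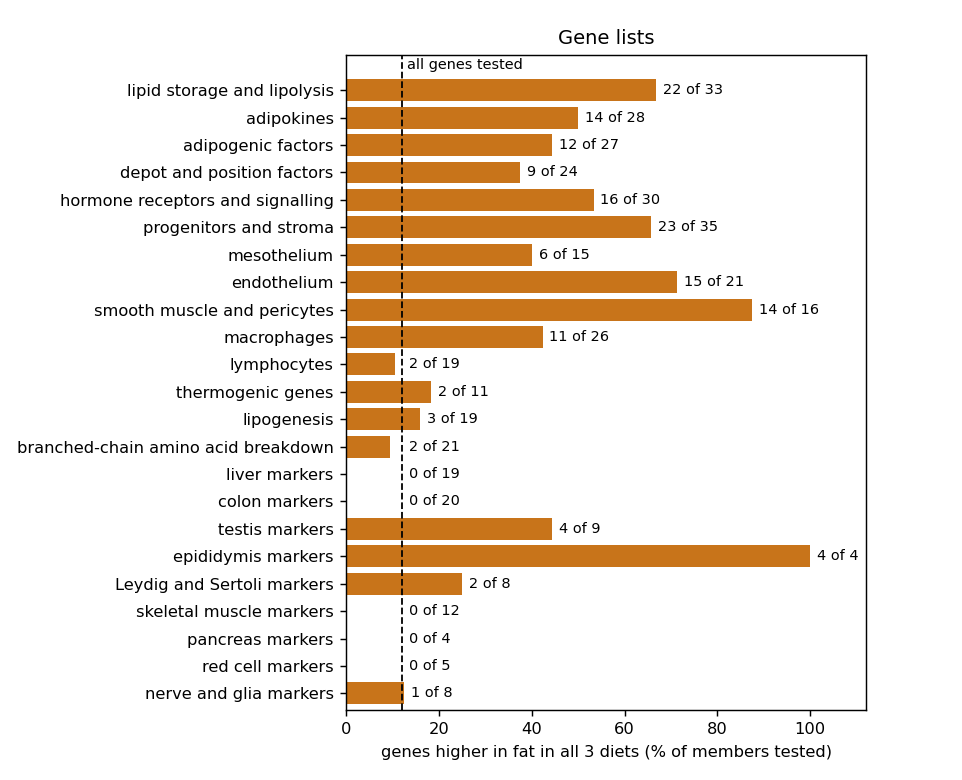
Bars give the share of tested members of each list that were higher in fat in all 3 diets (x axis, %), with counts beside them; the dashed line is the 12.1% of all 15913 genes tested. Smooth muscle and pericytes (14 of 16), endothelium (15 of 21), lipid storage (22 of 33) and stroma (23 of 35) lie far to the right of the line, while lymphocytes, thermogenic genes and branched-chain amino acid breakdown lie near it.

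For lipid storage and lipolysis, 22 of 33 genes tested met the rule, 3 more (Mgll, Abhd5 and Hilpda) passed both tests without a 2-fold difference in every diet, and 1 (Pck1) was lower than liver. The median difference was 3.23 against liver and 5.89 against colon. Genes of fatty acid capture included Lpl, Gpihbp1, which anchors the lipase to capillaries, and Cd36, a fatty acid importer. Cd36 had 3074, 2139 and 2093 CPM in fat, 12.9 to 25.1 times the liver and 517 to 1551 times the colon. Droplet coat genes included Plin1, Plin4 and Cidec. Plin4 had 3400, 1639 and 2395 CPM in fat against 22.5 to 30.6 in liver. Cidec, which fuses droplets, had 2878, 1861 and 2163 CPM in fat, whereas its liver level was 15.7, 2.78 and 115 CPM, so its fold over liver ranged from 18.8 to 670.

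The 3 lipases that empty the droplet in turn differed. Pnpla2, the triglyceride lipase, had 2281, 1835 and 1655 CPM, 7.60 to 11.5 times the liver (edgeR adjusted p = 0.00024) and 8.09 to 11.2 times the colon (0.00011). Lipe, the hormone-sensitive lipase, had 1730, 1713 and 971 CPM, 56.5 to 89.6 times the liver. Mgll, the monoglyceride lipase, had 1055, 835 and 605 CPM, and was 1.17 times the liver in DR-AL. Aqp7, the channel that lets glycerol out, had 205, 89.0 and 166 CPM in fat and at most 0.397 in liver or colon.
Of the genes of triglyceride synthesis, Dgat1, Mogat1 and Gpat3 (listed as Agpat9) met the rule. Agpat9 had 124, 118 and 64.5 CPM in fat, 2.47 to 20.1 times the liver, and Dgat1 was 2.31 to 7.57 times the liver. Agpat2 and Lpin1 did not pass against liver (edgeR adjusted p = 0.82 and 0.51). Dgat2, the other enzyme of the last step, had 408, 1002 and 134 CPM in fat against 663, 856 and 415 in liver, and its difference did not pass the test (edgeR adjusted p = 0.41). Acsl1, which activates fatty acids, and G0s2, which inhibits Pnpla2, also did not pass against liver (0.30 and 0.66). Pck1, the enzyme that feeds glycerol synthesis, had 3707, 745 and 1647 CPM in fat and was lower than liver in each diet (0.042), and 4.52 to 22.0 times as high as colon.

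For adipokines, 14 of 28 genes tested met the rule, and 8 were lower than liver or colon. The median difference was 1.66 against liver and 6.12 against colon. Besides the hormones above, Nnat had 1590, 397 and 386 CPM in fat and at most 1.92 in liver or colon. Sfrp5, a secreted inhibitor of Wnt signalling, had 38.1, 8.24 and 37.3 CPM. The 8 lower genes were Rbp4, Itln1, Metrnl, Serpina12, Agt, Rarres2, Angptl8 and Fgf21. Rbp4, the retinol carrier, had 897, 467 and 160 CPM in fat against 7309 to 8276 in liver (edgeR adjusted p = 0.0018), and 26.7 to 205 times the colon level. Its order over the fat libraries was that of the liver marker sum and also that of the sum for lipid storage and lipolysis. The source of its transcripts was not tested. Agt, angiotensinogen, had 344, 197 and 260 CPM against 1256 to 1365 in liver (0.00075). Itln1, omentin, was listed at 0 in every fat and every liver library.

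Among 27 adipogenic factors, 12 met the rule, 2 (Pparg and Zbtb16) passed both tests without a 2-fold difference in every diet, and 6 were lower than liver or colon. Pparg (chr6:115360951-115490399, plus strand), the master regulator of adipocytes, had 206, 232 and 138 CPM in fat, 8.44 to 19.6 times the 11.8 to 19.3 CPM of liver. Colon held 109, 77.8 and 66.3 CPM, and fat was 1.88 to 2.98 times as high (edgeR adjusted p = 0.0047). Cebpa had 476, 406 and 175 CPM in fat and 346 to 396 in liver, and did not pass against liver (0.69).
The 12 that met the rule were Ebf1, Ebf2, Ebf3, Zfp423, Stat5a, Zfp521, Tshz2, Prrx1, Nr2f1, Meox2, Bnc2 and Osr1. Ebf2 had 31.0, 23.2 and 21.2 CPM in fat and no read in liver, at least 111 times as high. Ebf1 had 115, 82.4 and 64.9 CPM against at most 1.17 in liver or colon. Zfp423, a factor of preadipocyte commitment, had 29.5, 27.2 and 21.1 CPM, 30.3 to 46.8 times the liver. Prrx1, a mesenchymal factor, had 17.7, 21.0 and 14.3 CPM, 14.0 to 22.6 times the liver. Klf15 had 82.1, 84.7 and 44.9 CPM, lower than the 304 to 374 CPM of liver.

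Factors of body position were counted by locus. Of 24 loci tested, 9 met the rule, 4 more passed both tests, and 9 were lower than liver or colon. The 5 loci Hoxc4, Hoxc5, Hoxc6, Hoxc8 and Hoxc9 met it together and stood next to each other among the genes tested, at chr15:102967443-103036852. Hoxc8 had 74.9, 61.1 and 40.1 CPM in fat, Hoxc6 27.2, 22.2 and 17.7, and Hoxc9 3.66, 4.02 and 4.03. At most 3 reads were counted on any of the 5 in any liver or colon library, and on Hoxc9 none. Hoxc10 had 0.510, 0.952 and 0.861 CPM in fat, under the floor of 1 CPM. Hoxd8 had 21.5, 26.7 and 37.6 CPM and the joint locus Hoxd3/Hoxd4 17.0, 24.2 and 40.1. Both loci rose from AL to DR to DR-AL fat, the order of the testis and epididymis marker sums, whereas Hoxc8 and Hoxc6 fell. The source of these transcripts was not tested. Hoxb13 and Hoxd13 were highest in colon. Hoxb13 had 0.630 CPM in AL fat, 0.0893 in DR fat and 0 in DR-AL fat against 303 to 458 in colon, and Hoxd13 0.749, 2.02 and 0.272 against 59.2 to 64.5. Wt1, a factor of visceral depots, gonads and mesothelium, had 9.77, 12.6 and 14.7 CPM in fat, 8.92 to 25.8 times the liver. Its order over the fat libraries was also that of the testis and epididymis marker sums.

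Hormone receptors and their signalling genes met the rule for 16 of 30 members, and 2 (Adra2a and Sstr1) were lower than colon. The median difference was 2.42 against liver and 4.12 against colon. Adrb3, the β3-adrenergic receptor, which starts lipolysis, had 1004, 761 and 546 CPM in fat against 4.44 to 14.4 in liver and 0.144 to 0.978 in colon. Adrb1 had 2.88, 2.05 and 1.29 CPM, which did not pass against liver (edgeR adjusted p = 0.076). Npr3, the clearance receptor of natriuretic peptides, had 533, 304 and 178 CPM, 46.1 to 256 times the liver, and Npr1, the signalling receptor, 68.9, 54.2 and 69.7 CPM, 3.03 to 6.39 times the liver.
Tshr, the thyrotropin receptor, had 142, 119 and 54.8 CPM in fat. Liver had 0, 2 and 0 reads of it and colon 3, 1 and 2. The lactate receptor Gpr81 (Hcar1) had 84.9, 45.6 and 12.9 CPM, and the oxytocin receptor Oxtr 16.6, 11.1 and 14.8 CPM. Slc2a4, the gene of GLUT4, had 116, 218 and 31.9 CPM in fat, 12.6 to 264 times the liver and 27.3 to 230 times the colon. Insr, the insulin receptor itself, had 177, 102 and 106 CPM in fat against 166 to 197 in liver and 107 to 127 in colon, and neither difference passed (0.07 and 0.79). Ffar4, a receptor for long-chain fatty acids, had 31.1, 17.4 and 14.7 CPM, higher than liver (0.00012), and colon held 26.8 to 36.6 CPM.

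Lists of the other cells of the tissue were counted in the same way. In bulk tissue, fewer cells of a type and less RNA per cell cannot be told apart. For smooth muscle and pericytes 14 of 16 genes met the rule, for endothelium 15 of 21, and for progenitors and stroma 23 of 35. Myh11, the myosin of smooth muscle, had 396, 974 and 194 CPM in fat, 82.6 to 258 times the liver and 30.8 to 63.8 times the colon, and Acta2 had 256, 727 and 299.8 CPM. Cdh5, the cadherin of endothelial junctions, had 225, 157 and 182 CPM, 6.94 to 12.1 times the liver and 119 to 163 times the colon. Kdr, the VEGF receptor, had 125, 88.5 and 79.3 CPM and was closer to liver, at 2.15 to 3.70 times. Plvap and Lyve1, which vessels of the liver also express, did not pass against liver (edgeR adjusted p = 0.32 and 0.41).
In the stroma, Pdgfra, the receptor that marks adipocyte progenitors, had 32.4, 36.7 and 30.1 CPM in fat, 3.12 to 4.86 times the liver. Pi16, a marker of fibroblast progenitors, had 19.1, 30.8 and 16.7 CPM, 52.8 to 75.8 times the liver, and Col6a3 had 69.3, 54.2 and 41.1 CPM, 5.85 to 9.47 times the liver. Dpp4, which liver and gut epithelium express, had 42.2, 32.6 and 32.4 CPM, lower than liver (edgeR adjusted p = 0.00011). Gas6, F3, Cd55 and Anxa3 were also lower than liver or colon, which made 5 of the 35 members of this list.
Mesothelium gave 6 of 15 genes, and 4 (Krt8, Krt18, Krt19 and Ildr2) were lower than liver or colon. Lrrn4 had 12.6, 15.5 and 5.94 CPM in fat, and Upk3b 41.8, 63.1 and 14.96 CPM. Liver levels of both were highest in DR-AL, at 2.35 and 9.39 CPM, so that the smallest folds over liver were 2.53 for Lrrn4 and 1.59 for Upk3b, which left Upk3b out. The keratins of this list, Krt8, Krt18 and Krt19, are shared with gut epithelium, and Krt19 had 18.9, 55.0 and 25.6 CPM in fat against 2657 to 3741 in colon.

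Macrophage genes met the rule for 11 of 26 members. Another 3, Csf1r, Cd163 and Folr2, passed both tests without a 2-fold difference in every diet. Mpeg1, Cd14 and Ctss, 3 of the 26, were lower than liver or colon. C1qa, a complement gene of resident macrophages, did not pass against liver, with 52.1, 61.8 and 49.7 CPM in fat and 37.6 to 45.2 in liver (edgeR adjusted p = 0.07), nor did Emr1, the gene of F4/80, with 8.63, 11.4 and 9.13 CPM (0.57). Timd4 was 0.989, 2.26 and 1.07 CPM in fat and 4.88 to 5.23 in liver (0.14). Retnla, a marker of alternative activation, had 179, 125 and 88.0 CPM in fat and at most 0.428 in liver or colon, and Cd209f had 12.1, 12.2 and 8.20 CPM and no read in liver. Of 19 lymphocyte genes, 2 met the rule, Gata3 and Il1rl1, which is close to the share of all genes. Cd3e, of the T cell receptor, had 1.02, 0.863 and 1.63 CPM and passed neither test (0.17 and 0.43).

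Thermogenic genes met the rule for 2 of 11 members tested, Cidea and Kcnk3, and 7 were lower than liver or colon. Ucp1, the uncoupling protein of brown fat, had 1, 1 and 8 reads in the fat libraries and was not tested. Cidea had 2.73, 7.86 and 2.86 CPM. Cox8b, a cytochrome oxidase subunit of brown fat and muscle, had 9.77, 12.3 and 1.97 CPM.

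Of 19 genes of fatty acid synthesis, 3 met the rule, Acaca, Acacb and Aacs. Fasn, the fatty acid synthase, had 959 CPM in AL fat, 14082 in DR fat and 208 in DR-AL fat, while liver had 123, 812 and 50.4 CPM. Fat was 4.13 to 17.3 times the liver (edgeR adjusted p = 0.025), but in DR-AL only 1.89 times the colon, which left it out. Acaca, acetyl-CoA carboxylase, met the rule with 334, 2026 and 98.2 CPM in fat and 44.8 to 156 in liver. Acly, the ATP citrate lyase, had 111, 1740 and 121 CPM and passed neither test (0.17 and 0.77). Each of the 3 was highest in the DR library in fat and in liver. Scd1, a desaturase, was listed at 0 in all 3 DR libraries while AL fat had 756056 reads, so that this gene could not meet the rule, and the 0 cannot be read as a level. Apart from loci of the Mup family and its relatives, no other gene with at least 1000 reads in liver or colon was listed at 0 in all 3 tissues of a diet.
Of 21 genes of branched-chain amino acid breakdown, Bcat2 and Slc7a10 met the rule, close to the share of all genes tested. The liver and colon sides differed. Lower than liver were 10 of the 21 and lower than colon 0, while 16 were higher than colon. Over all 15913 genes tested these counts were 4222, 4719 and 5393. The median difference was -0.68 against liver and 1.66 against colon. Bcat2, which starts the pathway outside the liver, had 149.6, 181 and 64.2 CPM in fat, 2.22 to 5.33 times the liver. Slc7a10, an amino acid transporter of white adipocytes, had 247, 128 and 102 CPM and at most 0.463 in liver or colon.

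Families of related genes were counted too. No member met the rule among 4 hexokinases, 5 long-chain acyl-CoA synthetases, 2 PEPCK genes, 6 cytochrome oxidase isoforms and 3 PPAR receptors. Among 7 fatty acid binding proteins, Fabp4 and Fabp5 met the rule. Fabp5 had 106, 169 and 57.2 CPM, 6.54 to 10.1 times the liver. Fabp1, the form of liver, had 7114 to 8127 CPM in liver and 196 CPM in AL fat, 3.54 in DR fat and 0.317 in DR-AL fat. This order was that of the liver marker sum and also that of the sum for lipid storage and lipolysis. Fabp2, the intestinal form, had 401 to 835 CPM in colon and 8.09, 0.0298 and 0.0453 in fat.
Of the 5 perilipins, Plin1 and Plin4 met the rule. Plin2, the widespread form, had 203, 189.5 and 265 CPM in fat and 370 to 1665 in liver, and Plin5, the form of oxidative tissues, 12.7, 7.62 and 13.6 CPM against 61.1 to 247 in liver. Both were lower than liver (edgeR adjusted p = 0.0055 and 0.00024). Cidec and Cidea met it and Cideb did not, with 24.6, 3.09 and 3.69 CPM in fat and 424 to 490 in liver.
Among glucose transporters Slc2a4 and Slc2a3 met the rule. Slc2a3, the high-affinity transporter GLUT3, had 23.1, 51.9 and 130 CPM in fat. This order was shared by the sums of the testis, epididymis, Leydig and Sertoli, lymphocyte, and depot and position lists. Slc2a1 had 14.3, 16.0 and 20.6 CPM against 310 to 374 in colon, and Slc2a2, of liver, 50.5, 0.744 and 0.408 CPM in fat. Of the PPAR receptors, Ppard was the most constant, with 27.0, 27.0 and 27.1 CPM in fat, above the 7.48 to 9.79 of liver (0.00021) and under the 205 to 236 of colon (1.5e-05). Ppara had 70.8, 15.1 and 8.57 CPM in fat and 332 to 544 in liver. In the resistin family, Retn and Retnla met the rule, and Retnlb, which goblet cells make, had 4.57 to 40.1 CPM in colon and at most 0.0600 in fat.

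**Figure D4:**
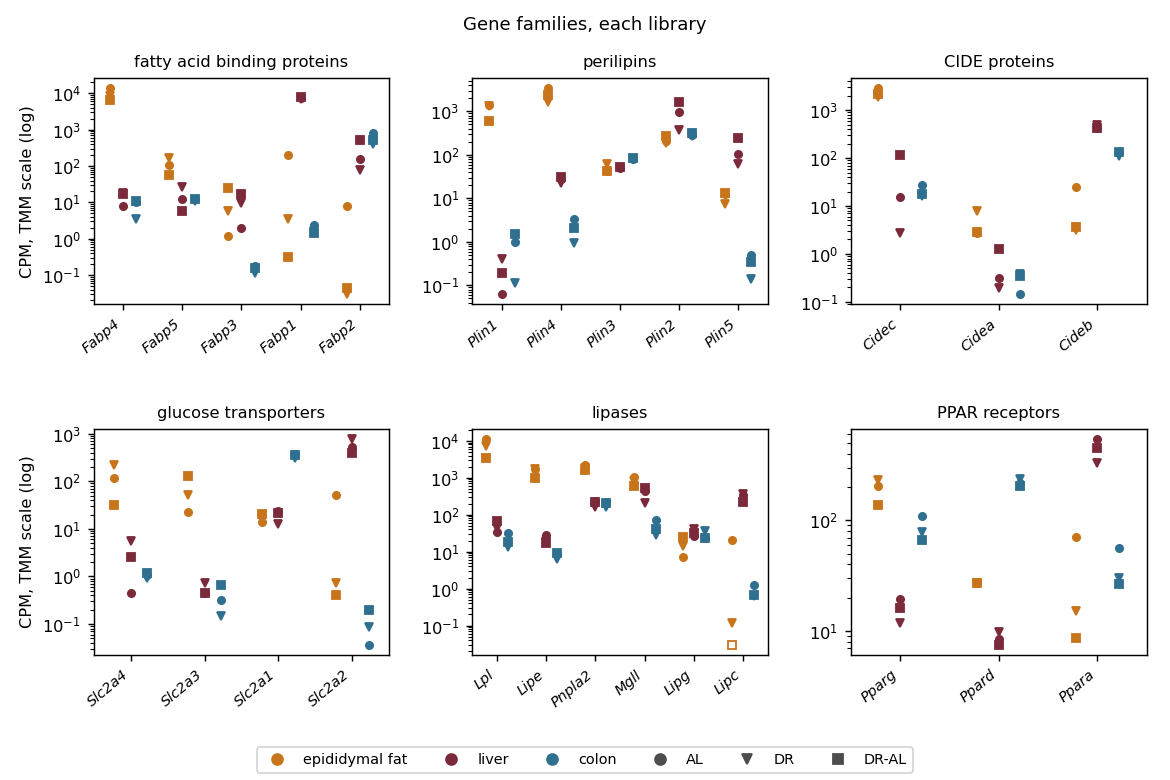
CPM on the TMM scale (log axis) of members of 6 gene families in each of the 9 libraries, with tissue as colour and diet as symbol; an open symbol stands for 0. Each family has at least 1 member that is highest in fat, such as Fabp4, Plin1, Cidec, Slc2a4, Lpl and Pparg, and at least 1 that is highest elsewhere, such as Fabp1, Plin2, Cideb, Slc2a1, Lipc and Ppara.

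The level of a gene higher in fat differed between the 3 fat libraries by a median of 1.75 times from lowest to highest, against 1.45 times for the 13025 genes tested with at least 1 CPM in each. For 1663 of the 1929 genes the highest fat library was at most 4 times the lowest, and for 1187 at most 2 times. The 5 most even were Bmp4, Nbea, Krt80, Foxc1 and Gbgt1. Bmp4, a secreted factor that commits cells to the adipocyte lineage, had 8.30, 8.27 and 8.14 CPM. Foxc1, a factor of mesenchyme, had 7.10, 6.96 and 7.16 CPM, 12.5 to 28.2 times the liver and 15.3 to 22.0 times the colon. With 1 library for each diet, differences between the fat libraries were not tested.
AL fat was the highest library for 679 genes (35.2%), DR fat for 500 (25.9%) and DR-AL fat for 750 (38.9%). Over the 13025 genes these shares were 42.0%, 24.2% and 33.8%. For 82 genes the fat libraries lay over 10 times apart, and 75 of these 82 were lowest in AL fat and 75 were highest in DR-AL fat. The like counts over the 13025 genes were not made, so this is not shown to be particular to genes higher in fat. The 5 least even were Prm2, Smcp, Ccdc136, Spata18 and Defb23. Prm2, a protamine of sperm, had 1.29 CPM in AL fat, 116 in DR fat and 478 in DR-AL fat, 371 times apart, and Smcp, of the sperm mitochondrial capsule, had 1.02, 63.4 and 231 CPM. Both passed the floor of 1 CPM by a small margin. Prm1, the other protamine, had 2, 1437 and 10028 reads and was not tested.

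Of the markers of the neighbouring organs, 4 of 9 testis genes tested (Prm2, Sycp3, Spata18 and Smcp) and 4 of 4 epididymis genes tested (Crisp1, Rnase9, Adam7 and Sult1e1) met the rule, as did 2 of 8 Leydig and Sertoli genes and 1 of 8 genes of nerve and glia. Most of the testis and epididymis markers, 11 of 20 and 13 of 17, were too low in at least 1 fat library to be tested. The epididymis markers were near 0 in liver and colon, so that one could pass the filter only through its level in fat. The 4 of 4 was thus largely set by the filter and is a description. Adam7, an epididymal membrane protein, had 48.3, 196 and 298 CPM in fat, and Rnase9 7.91, 54.2 and 106 CPM. Sult1e1, the oestrogen sulfotransferase, which fat also makes, was even, with 22.9, 17.9 and 19.6 CPM. None of 19 liver, 20 colon, 12 skeletal muscle, 4 pancreas and 5 red cell genes tested met the rule. Markers that are high in liver or colon could not meet a rule that asks for more in fat. Their count therefore says nothing of their presence in the fat libraries, for which the sums are given above.
Without the AL fat library, the rule over the 2 remaining diets took in 3171 genes, of which 1870 were among the 1929. Fewer diets had to be met by construction. In the test over all 9 libraries, 446 genes passed and met floor and folds in DR and DR-AL but not in AL, and 256 of them were under 1 CPM in AL fat. The like counts were 147 for genes missed in DR alone and 180 for DR-AL alone.

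**Figure D5:**
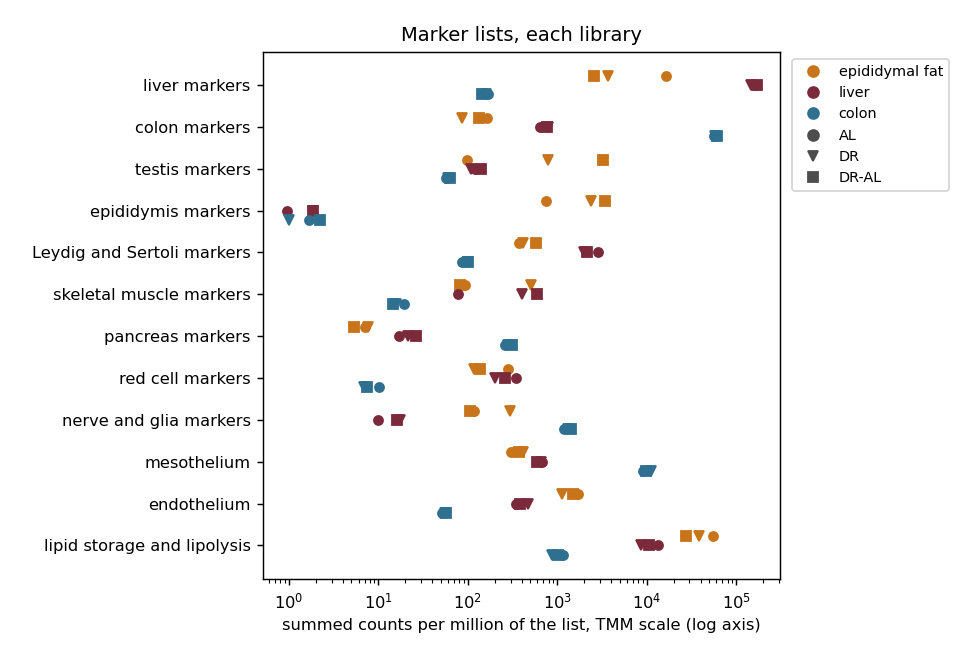
Summed CPM on the TMM scale (log axis) of marker lists in each library, with tissue as colour and diet as symbol. Liver markers are highest in AL fat among the fat libraries, testis and epididymis markers in DR-AL fat, and the sum for lipid storage falls from 54708 in AL fat to 27467 in DR-AL fat.

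Set beside the 2 brain regions, hypothalamus and hippocampus, 913 of the 1929 genes (47.3%) were also higher in fat than in both regions. Over all 17476 genes tested in the 15 libraries this held for 5637 (32.3%), and the fat libraries are the same in both comparisons. The 1929 genes were chosen for high levels in fat, and the 17476 include genes that are low in fat. The larger share is therefore set in part by the choice of genes and is a description. Adipoq, Lep, Plin1, Fabp4 and Hoxc8 were among those above both regions. Nnat, Apln, Zfp423, Kcnk3 and Nbea met the rule against liver and colon and were not above both brain regions.

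Genes higher in fat lay beside one another on the chromosome more often than the genes tested did. Of 1924 with a position in GENCODE M21 on GRCm38, 622 (32.3%) had a neighbour that also met the rule, among the genes tested in order of position, against 22.6% of all 15838 genes placed. This is a description, since neighbours can be copies of 1 ancestral gene and share reads. Among the loci with a gene name, 1040 also repeat the name of another. Such loci were placed at the same position and can count as neighbours of each other. Besides the HOXC genes, the longest runs held 6 genes. One, at chr1:135324807-135769136, had Lmod1, Shisa4, Ipo9, Nav1, Csrp1 and Phlda3, with Csrp1, a LIM protein of smooth muscle, at 191, 295 and 157 CPM. Another, at chr2:164569695-164638796, was a cluster of protease inhibitor genes of the male tract, Spint3, Wfdc6a, Eppin, Wfdc8, Wfdc6b and Wfdc16. Eppin, a sperm-binding inhibitor, had 3.84 CPM in AL fat, 18.5 in DR fat and 44.3 in DR-AL fat. A run of 4 β-defensin genes at chr2:152459055-152521447 had the same order, with Defb22 at 17.7, 121 and 255 CPM. At chr1:133679091-134048277, Lax1, Atp2b4, Optc, Prelp and Fmod followed each other, and Prelp and Fmod, small proteoglycans of the matrix, had 509, 238 and 338 CPM and 22.5, 37.9 and 17.9 CPM. The genes of these runs were named after their positions were seen.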

How the data were processed

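RNA-Seq of pooled RNA was analysed in 9 libraries, with 6 brain libraries for a side comparison. The authors removed duplicates, aligned stranded paired-end reads with Strand software and deposited 1 table of raw counts per locus. FPKM per locus were also deposited by the authors in that table. The study's methods name mm10, whereas the submitters' processing notes name mm9 and DESeq2. The positions printed are those of GENCODE M21 on GRCm38, matched by symbol. Of 33603 loci, the 23589 with a gene name were used.

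Counts were tested with edgeR 4.0.16 in R 4.3.3 (quasi-likelihood, TMM, filterByExpr by tissue, tissue and diet as additive terms, 4 residual degrees of freedom, Benjamini-Hochberg adjustment over 15913 genes). The diet term is also the block, since tissues of a diet came from the same mice. CPM were set on the TMM scale after the data showed that library totals shift the median log2 difference between fat and liver to 1.21. TMM left 0.24. DESeq2 1.42.0 and limma 3.58.1 on log2(FPKM + a pseudocount of 0.1 or 1) were alternatives, and figures were drawn with matplotlib 3.10.9. The fit was tested on simulated data. Counts cover counting error only.

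Genes named were the 12 farthest from both tissues, the 10 with the highest mean FPKM in fat, the 5 least and 5 most even over the fat libraries, and members of the lists and families counted; any other gene was named after its values were seen. Members and lists were chosen with earlier results of these data known. Some items are not reported here.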

Additional observations from a re-analysis of the deposited data

Results flagged for a closer look

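Loci without a gene name took no part in the comparisons. Of 2458 such loci tested in the same way, 243 were higher in fat than in liver and colon in all 3 diets. They took between 0.258% and 1.39% of the counts of the 9 libraries together with the other unnamed loci, with the highest share in DR-AL fat. No group had 4 or more samples, and no sample was examined as an outlier within its group.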

How the results depend on the processing

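The count of 1929 genes higher in fat in all 3 diets was 1867 with RLE size factors, 1922 with DESeq2 (1920 shared), 1924 with no diet term, which is the fit with no replicate block (1922 shared), 1911 with no filter, 1983 in the fit over 15 libraries and 1939 with a pairwise Z test. The floor and folds alone, without any test, took in 1939 of the genes tested. Likeness between tests was thus largely set by the floor and folds and says little about the tests. With library totals in place of TMM, fat was higher than liver for 10874 genes, higher than the mean of both for 9664 and lower for 1408, the rule took in 3131 genes and 1405 were also above both brain regions. With a mean of at least 10 counts in each tissue, the counts were 1079 (931 shared) and 476. In limma on log2(FPKM + 0.1), fat was higher than liver for 3111 genes, than colon for 3361 and than their mean for 2981, and lower for 8331, and 589 genes were above both brain regions. With a pseudocount of 1 these were 2763, 3042, 2735 and 8654. The rule gave 1160 genes with a fold of at least 4, 1250 with at least 5 CPM, 1187 with fat libraries at most 2 times apart and 617 with FPKM for floor and folds, and with library totals for floor and folds alone, chosen after seeing the data, 2682. Leaving out 1 diet or 1 fat library gave 1779 (without DR) to 3171 (without AL fat) genes by the rule, 816 to 1793 above both brain regions and 2558 to 4083 lower than the mean. Without all AL libraries the rule gave 3075. Beyond the construction named, the cause was not tested. Each tissue has 1 pooled library per diet, so that spread between animals, and any difference between diets within fat, could not be tested, and depth limits genes near 3 counts.

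Of 4110 fitted log2 differences of named genes under alternatives, 3861 kept their direction and side of the threshold, 118 lost the call, 64 gained one and 67 changed sign, where fitted values are log2 fat minus the other tissue. With library totals the changed values were 0.68 for G0s2 against liver, 0.94 for Agpat2 against liver, 1.02 for Slc2a1 against liver, 0.96 for Cebpa against liver, 0.57 for Dgat2 against liver, 0.48 for Acsl1 against liver, 0.64 for Insr against liver, 0.90 for Plvap against liver, 0.053 for Plin2 against colon. With the filter of at least 10 counts the changed values were 0.015 for Slc2a1 against liver. With DESeq2 the changed values were -0.021 for Lipc against colon. With no diet term the changed values were 0.093 for Agpat2 against liver. With limma on log2(FPKM + 0.1) the changed values were -0.27 for Acly against liver, -0.64 for Lpin1 against liver, -1.04 for Emr1 against liver, -0.48 for Csf1r against liver, -0.98 for C1qa against liver, -0.12 for Mgll against liver, -0.44 for Folr2 against liver, -0.37 for Lyve1 against liver, -0.25 for Cd3e against liver, -0.56 for Acly against colon, -0.31 for Agpat2 against colon, -0.57 for Dpp4 against colon, -0.80 for Insr against colon, -0.45 for Cd3e against colon, -0.37 for Lipc against colon. With limma on log2(FPKM + 1) the changed values were -0.25 for Acly against liver, -0.63 for Lpin1 against liver, -0.81 for Emr1 against liver, -0.44 for Csf1r against liver, -0.95 for C1qa against liver, -0.11 for Mgll against liver, -0.37 for Folr2 against liver, -0.33 for Lyve1 against liver, -0.10 for Cd3e against liver, -0.54 for Acly against colon, -0.29 for Agpat2 against colon, -0.48 for Dpp4 against colon, -0.71 for Insr against colon, -0.23 for Cd3e against colon. Leaving out 1 diet or fat library gave -1.30 to 0.59 for Agpat2 against liver, -0.38 to 0.11 for Slc2a1 against liver, -0.074 to 0.14 for Dpp4 against colon, -0.13 to 4.86 for Fabp1 against colon, -0.17 to 0.23 for Insr against colon, -3.69 to 2.65 for Lipc against colon, -0.30 to 0.58 for Emr1 against liver, -0.013 to 1.61 for Lyve1 against liver, -0.43 to 0.026 for Plvap against liver, -0.96 to 1.06 for Acly against colon, -0.083 to 1.68 for Agpat2 against colon, -1.37 to 0.68 for G0s2 against liver, -0.46 to 0.27 for Cebpa against liver.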
